A study of Mus musculus with 6 samples.

Results

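This account follows 37 genes of DNA replication and S phase in mouse embryonic stem cells that lack 3 linker histones. The genes were listed by name for their role in replication, with no threshold on their signals. A probe set belongs to a gene where the platform annotation lists it under the gene's current or older symbol. Of the 37 genes, 36 have a probe set, 35 have at least 1 probe set of their own, and 34 of these were bright enough to be tested. They hold 50 of the 12488 probe sets on the array, 47 of them listed with a single gene. Pole, the catalytic subunit of the leading-strand polymerase, has no probe set listed. The probe sets of Tyms, which makes thymidylate, are shared with a pseudogene, and that of Mcm6 stayed at background on all 6 arrays.

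Before each S phase, the origin recognition complex with Cdc6 and Cdt1 loads the ring-shaped Mcm2-7 helicase onto DNA, and Cdc45 joins when the helicase is switched on. Primase and polymerase alpha start each strand, the Rfc clamp loader places the Pcna ring, polymerases delta and epsilon extend the strands, and Rpa covers single-stranded DNA. Fen1 and Lig1 join Okazaki fragments, and Rrm1, Rrm2, Tyms, Tk1 and Dut supply nucleotides. Embryonic stem cells spend much of a short cycle in S phase, and E2F factors drive many of these genes.

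Wild-type embryonic stem cells were compared with 2 lines of such cells null for H1c (current symbol H1f2), H1d (H1f3) and H1e (H1f4) together. Each line was measured on 2 arrays, called experiment 1 and experiment 2 in the labels, and RNA was taken from cultures in exponential growth. The labels do not name the strain or sex of the cells, whether a null line is 1 clone, whether feeder cells were present, or whether a line's arrays stand for separate cultures. The p-values therefore rest on the spread from array to array alone, and this may be technical. The arrays had median signals from 34.1 to 39.5 intensity units. The highest of 19 bacterial and yeast controls was taken as background and ran from 9.1 to 17.2. H1f2 measured 70.0 and 68.2 on the wild-type arrays, 11.1 and 11.5 in null line 1 and 13.0 and 14.4 in null line 2, while the probe sets of H1f3 and H1f4 were at background on all arrays and check nothing.

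All 12 markers of embryonic stem cells were above background on every array, among them Pou5f1, Nanog and Sox2. Summed over the list, the signal came to 8370 and 8488 in wild type and to 8971 to 9937 in the null lines. From wild type to the null average, 8 of the 12 had a positive log2 change. The other 4, Nanog, Sox2, Klf4 and Tdgf1, had a negative one. Only 1 of the 12 passed the test, Fbxo15 (log2 change 1.05, limma adjusted p = 0.0465). Of 13 fibroblast markers 12 have a probe set, and their summed signal was 2346 and 2402 in wild type, 1694 and 1827 in line 1 and 1972 and 2074 in line 2. None of these was at or below background on all arrays. Thy1, Pdgfrb, Lum and Postn exceeded background on only 2, 2, 2 and 1 of the 6 arrays. Most of the sum came from Tagln and Acta2. Of the 4 fibroblast markers tested, Tagln and Acta2 had negative log2 changes (-0.36 and -0.71). Col1a1 and Col1a2 had positive ones (0.01 and 0.12), and none of the 4 passed. The 10 markers of extraembryonic endoderm summed to 1202 and 1411 in wild type and 934 to 1016 in the null lines. Here too none was at or below background on all arrays, but Gata6 and Ttr exceeded background on only 3 and 4 of the 6 arrays. Sparc and Col4a1 made up most of the sum. Of the 8 endoderm markers tested, 2 had a positive change and 5 a negative one, that of Afp rounded to 0, and none passed. The part of these differences in the results below was not tested.

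No replication gene passed the test in the null cells, although most of them measured slightly higher there. Of the 34 genes tested, 30 (88.2%) had a positive log2 change from wild type to the average of the null lines and 4 a negative one. Their median was 0.14, with a range from -0.09 to 0.40. Over all 7453 probe sets tested, 47.3% were positive and the median was -0.01. With limma, 0 of the 34 passed an adjusted p of 0.05, against 0.416% of all probe sets, and 4 had an unadjusted p under 0.05 (11.8%), against 12.7%. In bulk samples, fewer cells of a kind and less RNA per cell cannot be told apart. Log2 changes are differences of log2(value + 2), which understates the change of dim genes.

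The 4 genes with an unadjusted p under 0.05 were Rrm1, Rpa1, Mcm7 and Orc5, all higher in the null cells, where 5.53% of all probe sets were higher at that level and 7.16% lower. For 11 of the 34 genes (32.4%) all 4 null arrays lay above both wild-type arrays, against 11.0% of all probe sets, and for none did all 4 lie below, against 12.0%. The 11 were Mcm3, Mcm4, Mcm7, Pold1, Pold2, Rfc1, Rpa1, Fen1, Lig1, Rrm1 and Rrm2. The count was 21 without wild-type replicate 1, against 21.9% of all probe sets, and then 3 genes had all null arrays below, against 26.9%. It was 17 without line 1 replicate 2, against 16.4%. It lay between 11 and 15 (32.4% to 44.1%) without any other single array, against 13.0% to 20.6% of all probe sets. The count below stayed at 0 without any array but wild-type replicate 1, against 14.0% to 20.4%. The 34 genes are not independent of each other, and they were chosen with earlier results of these arrays known, so these counts describe the group and test nothing.

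**Figure D1:**
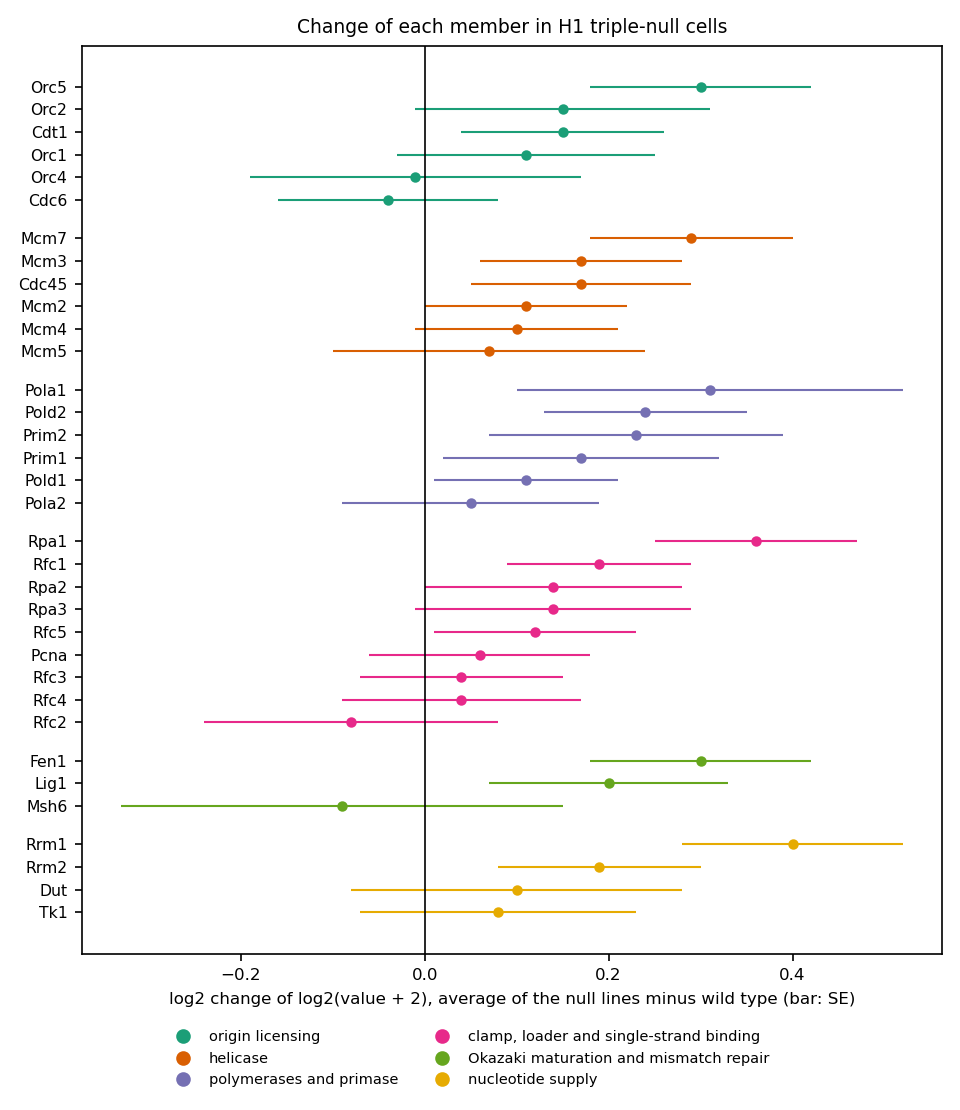
Log2 change of each of the 34 genes tested, null average minus wild type, with its SE as a bar and the genes grouped and coloured by role. Of the 34 points, 30 lie to the right of 0, from Rrm1 at 0.40 downwards, and Orc4, Cdc6, Rfc2 and Msh6 lie to its left.

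**Figure D2:**
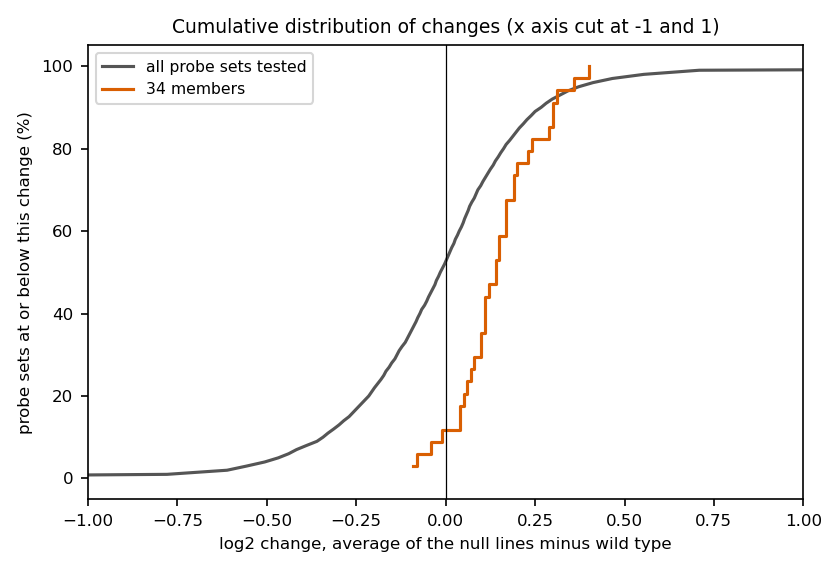
Cumulative share of probe sets (y axis, percent) at or below a given log2 change (x axis, null average minus wild type) for all probe sets tested and for the 34 replication genes. The curve of the 34 genes starts at -0.09 and crosses its middle at 0.14, whereas that of all probe sets crosses at -0.01 and spreads further on both sides.

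The spread of the 34 genes was narrow beside that of the array. Of these genes, 31 lay above the median of all probe sets and 18 above its 75th percentile, a log2 change of 0.13. None lay below the 25th percentile of -0.17. The brightest probe set stands for a gene here, whereas the array is counted by all probe sets tested, dimmer ones included. Over all 40 tested probe sets of these genes, the lowest change was -0.47, in a dimmer probe set of Pola2. Each gene alone was measured to within a 95% interval of 0.25 to 0.58 on either side, so that changes of the size of the group's median could not be resolved for any single gene.

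RefSeq promoter sequences (GRCm38.p6, 300 bases around an annotated start) were found for 33 of the 37 genes, 41 promoters in all. They were searched on both strands for 4 words of the E2F site, TTTGGCGC, TTTCGCGC, TTTCCCGC and TTTGCCGC. Of the 41 promoters, 12 (29.3%) held such a word, against 2.26% of all 32851 promoters in the table and 2.85% of those of protein-coding genes. The 12 belong to Cdc6, Cdt1, Lig1, Mcm3, Mcm5, Mcm6, Mcm7, Msh6, Orc1, Pola1, Pold1 and Rfc3. For 7 of these genes a word lay before the annotated start, and those stretches are shown because the word is more frequent in these promoters than in the table as a whole. Capitals mark the words. In Mcm5 and in the first stretch of Mcm6, words of opposite orientation overlap by 4 bases. The stretches of Orc1, Mcm7, Cdc6 and Pola1 lie inside the span that the annotation gives the gene, since another transcript starts further upstream.
Mcm5 (chr8:75109345-75109378, plus strand): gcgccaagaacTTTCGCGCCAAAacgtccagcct
Mcm6 (chr1:128359793-128359826, minus strand): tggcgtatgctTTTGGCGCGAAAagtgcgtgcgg
Mcm6 (chr1:128359734-128359763, minus strand): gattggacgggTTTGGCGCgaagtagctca
Mcm7 (chr5:138172030-138172059, minus strand): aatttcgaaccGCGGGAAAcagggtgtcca
Orc1 (chr4:108579416-108579445, plus strand): ttcggttagtgGCGCGAAAagttttctcct
Cdc6 (chr11:98908002-98908031, plus strand): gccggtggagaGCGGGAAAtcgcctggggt
Pola1 (chrX:93632275-93632304, minus strand): gtcatcacaggGCGCCAAAtgcactcccgc
Rfc3 (chr5:151651209-151651229, minus strand): acgtcgcacgcTTTCGCGCtc

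The distance from the word to the annotated start ranged from 2 bases in Rfc3 to 157 in Mcm7, with 19 in Orc1, 39 for the nearer stretch of Mcm6, 130 in both Cdc6 and Pola1 and 141 in Mcm5. The changes in the null cells are given for genes with and without a word as a description, and the difference between these groups was not tested. The 11 of them that were tested had a median log2 change of 0.11, with 9 positive, and the 20 tested genes whose promoters were searched and held none had a median of 0.15, with 19 positive. Rrm1 and Rpa1, the genes with the smallest p, are among those without such a word in this window, which says only that these letters are not there. Both hold the CCAAT word, which NF-Y binds. Of the genes that follow them by p, Mcm7 holds it too, and Orc5 and Fen1 do not. That word is common: 56.1% of the 41 promoters and 37.4% of all promoters in the table hold it on either strand. The word nearest the start is shown for Rrm1, where it lies 40 bases before the start, and for Rpa1, where it lies 37 before. The stretch of Rpa1 lies inside the annotated span of its gene.
Rrm1 (chr7:102441638-102441666, plus strand): gtccgctttcacCCAATgtggtggaaagg
Rpa1 (chr11:75348409-75348437, minus strand): gccgcgcggtagCCAATgcggtggctatc

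The enzymes that supply nucleotides held the gene with the largest log2 change of the 34. Rrm1, the large subunit of ribonucleotide reductase, which makes deoxyribonucleotides, measured 248.6 and 226.8 in wild type, 296.0 and 343.0 in line 1 and 300.2 and 322.2 in line 2. All 4 null arrays lay above both wild-type arrays. The log2 change was 0.40 ± 0.12 (SE, 1.32-fold, limma adjusted p = 0.272, unadjusted p = 0.0147), so the difference did not pass. Rrm2, the small subunit, measured 432.7 and 405.0 in wild type, 541.3 and 496.4 in line 1 and 433.7 and 446.5 in line 2. Its null arrays were above wild type too, with the nearest array of line 2 almost level with the higher wild-type array, and the log2 change was 0.19 ± 0.11 (SE, limma adjusted p = 0.519).

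Tk1, the salvage thymidine kinase, and Dut, which removes dUTP, had log2 changes of 0.08 and 0.10. Dut measured 33.3 and 25.6 in wild type, 34.8 and 25.8 in line 1 and 37.3 and 29.4 in line 2. The first array was the higher in every line, and null and wild-type arrays overlapped (limma adjusted p = 0.856). The probe sets 93236_s_at and 93237_s_at, listed with Tyms and its pseudogene Tyms-ps together, had log2 changes of 0.08 and 0.10, with line 1 at 172.9 and 253.7 on the first of them.

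In the helicase group all 6 tested genes measured higher on average in the null cells (median log2 change 0.14), and none passed. Mcm7, a subunit of the Mcm2-7 ring, measured 589.6 and 540.6 in wild type, 666.6 and 682.1 in line 1 and 738.8 and 677.7 in line 2. The null arrays did not overlap the wild-type ones, and the log2 change was 0.29 ± 0.11 (SE, 1.22-fold, limma adjusted p = 0.359). Mcm3, another ring subunit, measured 641.1 and 645.7 in wild type, 689.0 and 804.7 in line 1 and 695.3 and 707.1 in line 2 with its brighter probe set, 160496_s_at (0.17 ± 0.11, SE, limma adjusted p = 0.599, 0.11 without line 1 replicate 2). Its other probe set, 100062_at, showed no such separation: the log2 change was 0.01 and the null arrays ran from 357.3 to 437.8, on both sides of 392.5 and 395.3 in wild type.

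Cdc45, which joins the active helicase, measured 130.8 and 114.5 in wild type, 137.6 and 124.8 in line 1 and 146.3 and 145.4 in line 2 (0.17 ± 0.12, SE, limma adjusted p = 0.587). Line 2 was above wild type, whereas line 1 overlapped it. The log2 change was 0.27 without wild-type replicate 1 and 0.08 without wild-type replicate 2. Mcm2, Mcm4 and Mcm5, further ring subunits, had log2 changes of 0.11, 0.10 and 0.07, and that of Mcm2 was 0.06 without wild-type replicate 1 and 0.07 without line 2 replicate 2. The arrays of Mcm4 did not overlap, at 508.5 and 501.9 in wild type and 511.1 to 578.4 in the null lines. The wild-type arrays of Mcm5 differed more from each other, at 624.0 and 856.4, than the null arrays did. Mcm6, the remaining ring subunit, gave 3.5 to 6.5 on all arrays, under background, and so tells nothing about the gene.

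The polymerase and primase group was alike in this, with 6 of 6 tested genes positive, a median log2 change of 0.20 and no gene past the threshold. Pold2, the second subunit of the lagging-strand polymerase delta, measured 283.0 and 298.5 in wild type, 335.8 and 327.2 in line 1 and 367.0 and 345.1 in line 2. The arrays did not overlap (0.24 ± 0.11, SE, limma adjusted p = 0.423). Pold1, its catalytic subunit, did not overlap either, at 282.9 and 283.5 in wild type and 290.6 to 318.2 in the null lines, with a smaller log2 change of 0.11 ± 0.10 (SE). Another Pold1 probe set, 161528_r_at, was too dim to be tested. Its arrays overlapped, at 17.8 and 29.8 in wild type and 13.3 to 21.8 in the null lines.

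Pola1, the X-linked catalytic subunit of polymerase alpha, measured 133.9 and 87.7 in wild type, 149.9 and 109.3 in line 1 and 141.2 and 141.9 in line 2. Its log2 change of 0.31 ± 0.21 (SE, limma adjusted p = 0.596) was the largest of this role, but it rested on the wild-type array of experiment 2: it was 0.01 without that array and 0.61 without the other wild-type array. Prim2, a primase subunit, measured 91.7 and 71.2 in wild type, 98.6 and 85.5 in line 1 and 90.8 and 108.4 in line 2, and wild type and null arrays overlapped (0.23 ± 0.16, SE, limma adjusted p = 0.583). It had the same low wild-type array, and its log2 change was 0.06 without it and 0.41 without the other. Prim1, the catalytic primase subunit, had a log2 change of 0.17.

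Pola2, the regulatory subunit of polymerase alpha, was the only gene of this role with a negative change in line 2. It measured 271.5 and 245.2 in wild type, 306.2 and 291.5 in line 1 and 271.5 and 209.4 in line 2 with probe set 98006_at (0.05 ± 0.14, SE, limma adjusted p = 0.925). A dimmer probe set, 161739_r_at, had a change of -0.47 ± 0.35 (SE, log2 scale, limma adjusted p = 0.625), for which a single array of line 2 at 22.2 stood far from the other arrays at 54.1 to 78.9.

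**Figure D3:**
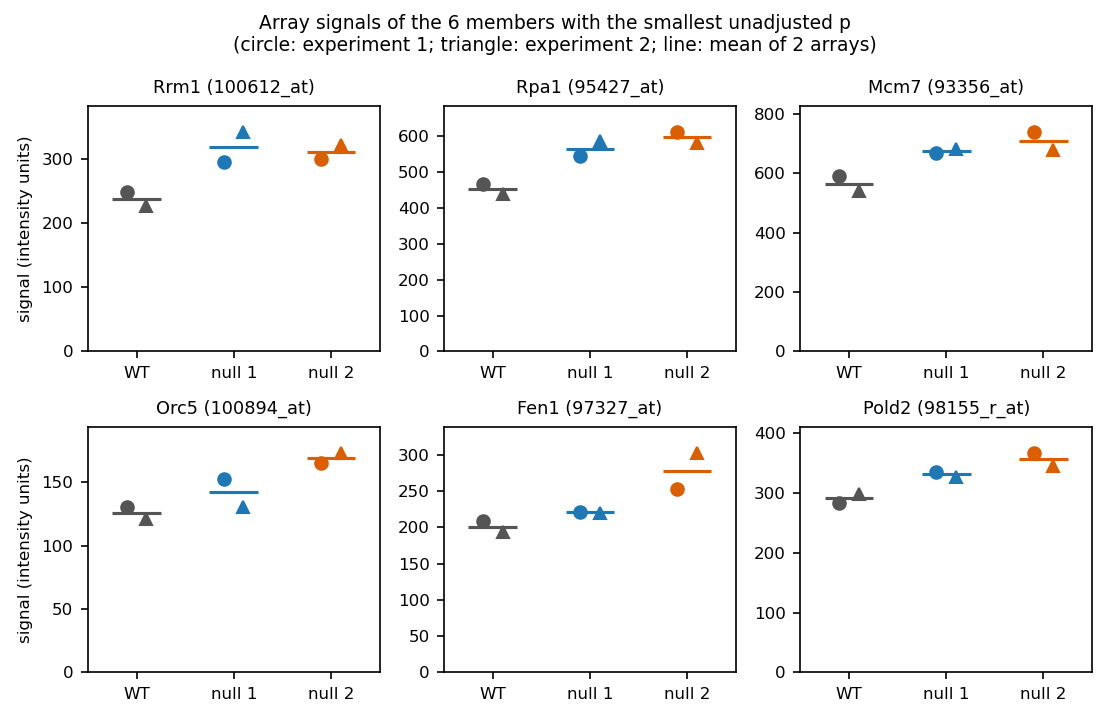
Signal in intensity units (y axis, from 0) on each array of wild type and both null lines for the 6 genes with the smallest unadjusted p, with circles for experiment 1, triangles for experiment 2 and a line at the mean of 2 arrays. For Rrm1, Rpa1, Mcm7, Fen1 and Pold2 all 4 null arrays lie above both wild-type arrays, and for Orc5 the line 1 array of experiment 2 equals the higher wild-type array at 130.4.

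Of the 9 genes of the clamp, its loader and the single-strand binding complex, 8 had positive changes and none passed. Rpa1, the large subunit of the single-strand binding protein, measured 466.4 and 439.9 in wild type, 545.1 and 586.9 in line 1 and 612.6 and 581.0 in line 2. All null arrays lay above wild type, and the log2 change was 0.36 ± 0.11 (SE, 1.28-fold, limma adjusted p = 0.275, unadjusted p = 0.0153). The smaller subunits Rpa2 and Rpa3 had log2 changes of 0.14 each, with overlapping arrays, and that of Rpa2 was 0.06 without line 2 replicate 2 and 0.08 without line 1 replicate 1. Rpa3 measured 251.3 and 194.4 in wild type and 218.3 to 255.0 in the null lines.

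The loader subunits differed little from wild type. Rfc1, the large subunit, measured 173.2 and 163.2 in wild type, 193.6 and 196.2 in line 1 and 192.6 and 186.9 in line 2. These arrays did not overlap (0.19 ± 0.10, SE, limma adjusted p = 0.494). Those of its dimmer probe set 98336_s_at did, at 44.3 and 33.8 in wild type and 34.2 to 60.6 in the null lines (0.16 ± 0.24, SE). Rfc5, a small subunit, measured 427.3 and 384.7 in wild type, 440.7 and 422.8 in line 1 and 441.3 and 460.0 in line 2 (0.12 ± 0.11, SE, limma adjusted p = 0.689), and its dim probe set 104001_at had a change of -0.16 ± 0.21 (SE). The brighter probe set had a change of 0.20 without wild-type replicate 1 and 0.05 without wild-type replicate 2. Rfc3 and Rfc4, small subunits as well, both had a change of 0.04, and Rfc2 one of -0.08. Pcna, the sliding clamp, measured 1026.6 and 1012.5 in wild type, 1096.7 and 939.4 in line 1 and 1191.8 and 1037.2 in line 2, and the change of 0.06 had a 95% interval from -0.24 to 0.36.

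Origin licensing genes were the least uniform of the larger roles, with 4 of 6 positive, a median of 0.13 and none passing. Orc5, a subunit of the origin recognition complex, measured 130.4 and 120.7 in wild type, 152.8 and 130.4 in line 1 and 165.0 and 173.1 in line 2. Line 2 stood above both other lines, and the log2 change was 0.30 ± 0.12 (SE, 1.23-fold, limma adjusted p = 0.384, unadjusted p = 0.0467). The probe set 93987_f_at, which the annotation lists with Gm15421, Rpl22l1 and Orc5 together, had its higher arrays in line 1 instead, at 2273.0 and 2367.2. Orc2, another subunit, measured 39.2 and 40.6 in wild type, 39.4 and 56.3 in line 1 and 43.7 and 40.6 in line 2, where a single array of line 1 stood out (0.15 ± 0.16, SE, limma adjusted p = 0.745). The change was 0.03 without that array and 0.28 without the other array of line 1.

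Cdt1, a loading factor, measured 511.6 and 473.2 in wild type, 563.8 and 577.6 in line 1 and 507.8 and 545.3 in line 2 (0.15 ± 0.11, SE, limma adjusted p = 0.603). Only line 1 was clear of wild type. Its second probe set, 161787_f_at, had a like change of 0.16, with all null arrays (178.7 to 208.2) above 177.1 and 170.3 in wild type, though by line 2 more than by line 1. Cdc6, the other loading factor, ran from 230.7 to 293.5 in the null lines around 253.2 and 276.9 in wild type (-0.04). Orc1 and Orc4, further subunits of the complex, had log2 changes of 0.11 and -0.01.

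Fen1 and Lig1, which complete Okazaki fragments, were higher on all null arrays, and Msh6, a mismatch recognition protein, was not. Fen1, the flap endonuclease, measured 209.2 and 192.8 in wild type, 221.1 and 220.3 in line 1 and 252.3 and 302.5 in line 2 (0.30 ± 0.12, SE, 1.23-fold, limma adjusted p = 0.398). Lig1, the DNA ligase, measured 201.0 and 218.2 in wild type, 228.6 and 282.3 in line 1 and 236.9 and 220.0 in line 2, with the nearest null array only slightly above wild type (0.20 ± 0.13, SE, limma adjusted p = 0.582, 0.12 without line 1 replicate 2). The dim Lig1 probe set 162004_i_at measured 27.7 on both wild-type arrays, 23.0 and 23.6 in line 1 and 28.8 and 28.9 in line 2, and so differed in direction between the null lines. Msh6 measured 17.4 and 30.6 in wild type, 19.0 and 16.6 in line 1 and 30.8 and 22.4 in line 2, close to background, and its arrays overlapped (-0.09 ± 0.24, SE, limma adjusted p = 0.916).

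Each null line was also set against wild type, and both comparisons share the wild-type arrays. In line 1, 28 of the 34 genes (82.4%) had a positive change (median 0.10), against 47.4% of all probe sets. In line 2, 31 (91.2%) did (median 0.15), against 48.2%. The median over all probe sets was -0.01 in each. None of the 34 passed with limma in line 1, where 0.134% of all probe sets did, or in line 2, where 0.255% did. At an unadjusted p under 0.05 there were 3 in line 1 (8.82%), Rpa1, Rrm1 and Rrm2, against 9.49% of all probe sets. In line 2 there were 5 (14.7%), Orc5, Mcm7, Rpa1, Fen1 and Rrm1, against 14.1%. Both line 1 arrays lay above both wild-type arrays for 13 genes (38.2%), against 18.9% of all probe sets. Both line 2 arrays did so for 19 genes (55.9%), against 23.6%. For no gene did both arrays of either line lie below wild type, against 20.6% and 25.2%.

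The null lines were then compared with each other. The differences come from their own 4 arrays, and the spread behind each SE and p from all 6, wild type included. None of the 34 genes passed with limma, where 0.0268% of all probe sets did, and 1 had an unadjusted p under 0.05 (2.94%), against 7.55%. The median difference, line 1 minus line 2, was -0.07. In line 1, 10 genes (29.4%) were higher and 24 lower, where 48.8% of all probe sets were higher. The gene with the smallest p was Rpa2, the middle subunit of the single-strand binding protein. It measured 42.0 and 35.8 in line 1 and 49.3 and 61.0 in line 2, around 42.2 and 41.5 in wild type. The arrays of the lines did not overlap, and the log2 difference was -0.48 ± 0.16 (SE, unadjusted p = 0.0215, limma adjusted p = 0.627).

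Fen1 was next, lower in line 1 by a log2 difference of -0.32 ± 0.14 (SE, limma adjusted p = 0.627). Mcm2 measured 416.8 and 439.0 in line 1 and 483.4 and 539.7 in line 2, beside 421.4 and 447.1 in wild type, a difference of -0.25 ± 0.13 (SE, limma adjusted p = 0.645). Pola2 (0.32 ± 0.16, SE) and Rrm2 (0.24 ± 0.12, SE) went the other way, with line 1 the higher, and neither passed (limma adjusted p = 0.645 and 0.65). In all, both arrays of line 1 lay below both arrays of line 2 for 11 genes (32.4%), against 20.2% of all probe sets. They lay above for 4 genes (11.8%), against 18.9%. Rrm1 had a difference of 0.03, with a 95% interval from -0.30 to 0.37, and Mcm4 one of -0.01, with an interval from -0.33 to 0.31. These intervals do not show that the lines are alike.

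**Figure D4:**
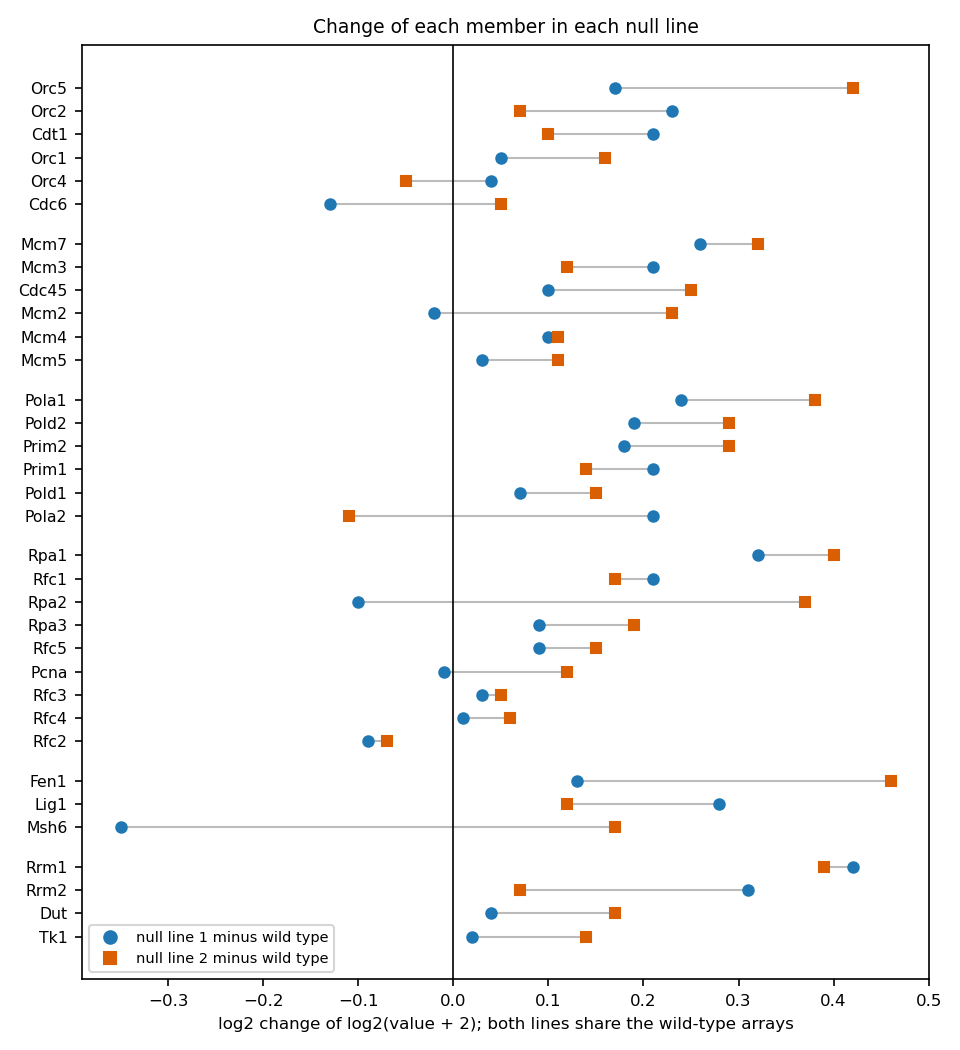
Log2 change from wild type of each gene in null line 1 (circles) and null line 2 (squares), joined by a line, with genes grouped by role. Rpa2, Msh6, Pola2 and Fen1 have the widest gaps, and Rrm1, Mcm7, Rpa1 and Pold2 lie to the right of 0 in both lines.

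The arrays of experiment 1 and experiment 2 were compared as well, with line as a term. No gene passed with limma, and neither did any other probe set (0.00%), while 3 of the 34 had an unadjusted p under 0.05 (8.82%), against 6.78%. These were Orc4, Rfc2 and Dut. Orc4 measured 190.3, 216.6 and 184.7 in experiment 1 for wild type, line 1 and line 2, and 163.7, 151.1 and 156.7 in experiment 2, lower in each line (-0.32 ± 0.12, SE, limma adjusted p = 0.726). Rfc2 went the other way, from 246.7, 235.9 and 247.4 to 315.4, 292.0 and 283.5 (0.28 ± 0.10, SE, limma adjusted p = 0.726). For Dut, whose values are given above, the log2 difference was -0.36 ± 0.10 (SE, limma adjusted p = 0.71). Experiment 1 was the higher in all 3 lines for 9 of the 34 genes (26.5%), against 14.0% of all probe sets. Experiment 2 was the higher for 6 (17.6%), against 14.6%.

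Within experiment 1, 32 of the 34 genes were higher in the mean of the 2 null arrays than on the wild-type array, with a median difference of 0.12, and 51.3% of all probe sets were. Within experiment 2, 25 (73.5%) were, with a median of 0.18, and 45.2% of all probe sets were. For 25 genes (73.5%) the difference was positive in both experiments, against 29.4% of all probe sets. Rrm1 had 0.26 and 0.55, Rpa1 0.31 and 0.41, Mcm7 0.25 and 0.33 and Orc5 0.28 and 0.31. Msh6 turned from 0.44 to -0.61. Within an experiment there is 1 wild-type array, so these values have no test.

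**Figure D5:**
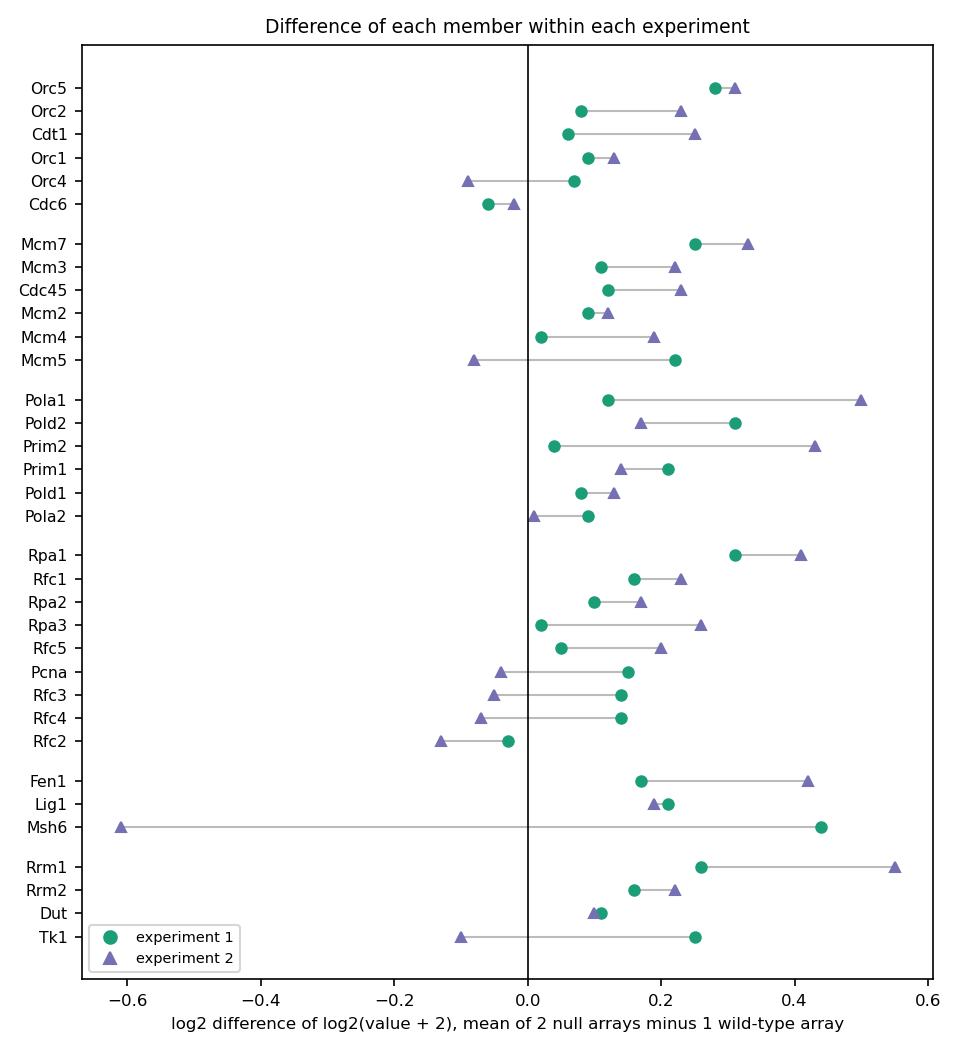
Log2 difference between the mean of 2 null arrays and the single wild-type array, for each gene within experiment 1 (circles) and within experiment 2 (triangles). Of the 34 genes, 32 lie to the right of 0 in experiment 1 and 25 in experiment 2, and Msh6 has the widest gap, from 0.44 to -0.61.

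By array, the median of the 34 genes, as a log2 difference from the wild-type mean, was 0.04 and -0.04 for wild type, 0.16 and 0.07 for line 1 and 0.17 and 0.15 for line 2. The second array of line 1 was thus the lowest of the null arrays. The same median over all probe sets ran from -0.03 to 0.01.

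Further replication genes outside the 37 were read from a list of 49, of which 37 have a probe set of their own and 33 were tested. Like the 37, they were listed with earlier results of these arrays known and are no independent check. They include factors of origin firing, fork protection, chromatin assembly, nucleotide synthesis and RNA primer removal. Of the 33, 25 had a positive change and 8 a negative one, with a median of 0.14. None passed in either direction with limma, and 3 had an unadjusted p under 0.05 (9.09%), against 12.7% of all probe sets. For 7 all 4 null arrays lay above both wild-type arrays (21.2%), against 11.0%.

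Shmt1, which makes the one-carbon units used for thymidylate, measured 198.7 and 199.3 in wild type, 274.2 and 280.3 in line 1 and 292.7 and 280.1 in line 2. Its null arrays lay well above wild type, by 0.50 ± 0.10 on the log2 scale (SE, limma adjusted p = 0.143). Asf1b, a histone chaperone at the fork, measured 54.7 and 55.5 in wild type, 75.5 and 60.3 in line 1 and 84.3 and 78.7 in line 2 (0.42 ± 0.13, SE, limma adjusted p = 0.286). Top1, which relaxes DNA ahead of the fork, measured 557.6 and 486.4 in wild type and 625.0 to 725.5 in the null lines (0.36 ± 0.12, SE, limma adjusted p = 0.316). Chaf1b, a subunit of chromatin assembly factor 1, had a change of 0.26, Mcm10, which helps start the helicase, one of 0.26, and Dna2, a nuclease that trims flaps, one of 0.23.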

How the data were processed

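The deposited table gives each probe set an intensity per array, on a linear scale, which the authors computed with MAS5 according to the submitters' processing notes (version not given in the sources used here). The trimmed mean of every array, without 2% of the probe sets at each end, was 100.1, so a common scaling was kept. Gene names came from the annotation of the array platform, with symbols updated through a mouse gene table (GRCm38.p6) that matched 10817 of the 10833 listed with 1 gene. The brightest of a gene's own probe sets stands for it.

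Values were tested as log2(value + 2) with limma 3.58.1 in R 4.3.3, with a mean per line over all 6 arrays (3 residual and 3.17 prior degrees of freedom). Probe sets entered if their mean reached the 40th percentile (20.9 intensity units), and the 66 control probe sets were left out. Benjamini-Hochberg adjustment was over all 7453 probe sets tested. The procedure was tested on simulated data. Plots were drawn with matplotlib 3.10.9.

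The 37 genes and the further lists were chosen with earlier results of these data known. Values are given by array for the 3 genes of each role with the smallest p, for the 5 with the smallest p between null lines, and for genes whose tested probe sets differ in direction, and some others are added for context. Alternatives were another pseudocount, filter, scaling and spread, a replicate block, and each array left out.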

Additional observations from a re-analysis of the deposited data

How the results depend on the processing

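No replication gene passed in any of the 4 comparisons between lines under any of the 13 alternatives to the fit. In the null average, the median of the tested genes stayed between 0.12 and 0.18 (0.18 within experiment 2, and 0.12 to 0.18 with 1 array left out). With 1 array left out, 28 to 32 of the 34 genes were positive. Within experiments 1 and 2, 32 and 25 of the genes were positive. Counted by all their tested probe sets instead, 33 of 40 probe sets were. The median in line 1 ran from 0.07 to 0.19 with 1 array left out. The count of genes whose null arrays all lay above wild type then ran from 11 to 21 (32.4% to 61.8%). Over all probe sets that share ran from 13.0% to 21.9%. Of 21 named genes, 18 kept their sign throughout, and none passed. With 1 array left out, Msh6 ran from -0.46 to 0.29 (positive without wild-type replicate 2 or, at 0.02, line 2 replicate 2), Dut from -0.07 to 0.28 (negative without wild-type replicate 2) and Pola2 from -0.04 to 0.14 (negative without line 2 replicate 1 or, at -0.02, wild-type replicate 2); the cause was not tested.

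Counts over all probe sets moved more. In the null average, 31 passed: 54 with a pseudocount of 16, 8 without the filter, 64 with a filter at the 60th percentile, 101 with a spread that follows the signal, 14 with a replicate block and 7 to 13 with 1 array left out. For line 1, 10 passed, and 5 without the filter, 17 with the stricter filter, 42 with the trend and 4 to 9 with 1 array left out. For line 2, 19 passed, and 31, 5, 59 and 92 in the order pseudocount, no filter, stricter filter and trend, and 0 to 10 with 1 array left out. Between the null lines 2 passed, 1 with the pseudocount of 16, the stricter filter or quantile scaling, and 0 without the filter, with the replicate block or with any array left out. Between experiments 0 passed (505 at an unadjusted p under 0.05), and 3 with the pseudocount of 16. Over all probe sets, the same-numbered arrays shared no clear deviation (r between 0.053 and 0.095). Over the 34 genes r was 0.515 for wild type and line 1 and 0.298 for the null lines. It was -0.073 for wild type and line 2, so some pairs of lines deviated together over these genes and 1 did not. The fit with a replicate block gave the comparison of the experiments above, and its comparisons between lines are given only here. Where an arm was left with 1 array, it is assumed to vary like the others. The number of arrays limits the precision.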

Other observations

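Pold4, the smallest subunit of polymerase delta, was below the filter and so outside the tests of the report. It measured 29.6 and 22.4 in wild type, 10.1 and 15.3 in line 1 and 9.4 and 8.8 in line 2, above background on both wild-type arrays and 1 null array, replicate 2 of line 1. The other 3 null arrays were not above background, so the size of the difference is not measured there.

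A second Tk1 probe set, 161150_at, also below the filter, measured 25.7, 9.9 and 21.2 in experiment 1 for wild type, line 1 and line 2, and 4.4, 4.1 and 3.5 in experiment 2. It exceeded background on only 2 arrays, those of wild type and line 2 in experiment 1, so the other values have no order. The brighter probe set of the gene, 96081_at, measured 189.2, 209.4 and 242.8 in experiment 1 and 251.8, 232.7 and 237.5 in experiment 2.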
